A study of Mus musculus with 2 samples.

Results

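The cells described here are fibro-adipogenic progenitors (FAPs) of mouse limb muscle that carried the transcripts of the Dpp4 type of FAP and no transcript of *Krt7* or *Plet1*. They were chosen by measured values. A score, P, was taken for each cell as the UMIs of *Pi16*, *Sema3c*, *Anxa3* and *Efemp1* per 10000 UMIs of that cell, and the gated cells had a P of at least 25 and 0 UMIs of *Krt7* and *Plet1*. A UMI (unique molecular identifier) marks 1 captured RNA molecule. The gate held 1986 of the 8481 cells of the series, 1016 of 4103 in one library and 970 of 4378 in the other.

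Both libraries came from 3-week-old C57BL/6 mice whose *Bap1* alleles are floxed on both chromosomes (*Bap1* f/f). The ΔMPC-labelled library (*Bap1* ΔMPC) came from Prx1-Cre; *Bap1* f/f mice, in which Cre acts in the limb mesenchyme that gives rise to FAPs, and the WT-labelled library (*Bap1* WT) came from *Bap1* f/f mice without Cre. *Bap1* encodes a nuclear deubiquitinase. FAPs were sorted as living cells negative for CD45, CD31 and Vcam1 and positive for Sca1, and RNA was counted at its 3′ end in droplets. There was 1 library per genotype, and the number of animals behind each is not given in the sources used here. Genotype and library therefore cannot be told apart, and differences between the libraries are given without p-values. Intervals are exact 95% intervals that cover counting error only.

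FAPs are the stromal cells of skeletal muscle. They lay down extracellular matrix, secrete growth factors for muscle stem cells and nerves, and can turn into adipocytes or myofibroblasts. Cells of the Dpp4 type lie mostly in the connective tissue sheaths and around vessels, where Pi16 and Dpp4 mark a progenitor state found in the stroma of many organs. The Cxcl14 type lies between the muscle fibers and carries more basement membrane genes. Dpp4 is a cell-surface peptidase, Pi16 a secreted protein of the CAP family, and Has1 a synthase of hyaluronan.

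The gated cells made up 24.8% of the WT-labelled library (interval 23.4% to 26.1%) and 22.2% of the ΔMPC-labelled library (interval 20.9% to 23.4%). The order of the libraries turned on the second condition of the gate. Of all cells, 25.6% (interval 24.3% to 27.0%) and 28.6% (interval 27.2% to 29.9%) had a P of at least 25, so that the share was then higher in the ΔMPC-labelled library. *Krt7*, a keratin, or *Plet1*, a surface protein of epithelial progenitors, had at least 1 UMI in 34 of 1050 such cells (3.24%) in the first library and in 281 of 1251 (22.5%) in the second. Among the cells with P below 25, 1.18% and 4.89% had such a UMI. The median P of the gated cells was 59.5 in the WT-labelled library and 47.1 in the ΔMPC-labelled library.

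The gated cells had a median of 13624.5 and 11632.5 UMIs, and the cells with P below 25 a median of 11829 and 10733 UMIs, in the WT-labelled and ΔMPC-labelled libraries. Summed over cells, the gated groups held 13634388 and 11418287 UMIs. Levels below are given as CPM, the UMIs of a gene scaled to a group total of 1000000 UMIs. The libraries shared 5 cell barcodes, and the gated cells of the libraries shared 0. *Bap1* reached 16.5 CPM (interval 14.4 to 18.8) and 19.1 CPM (interval 16.6 to 21.8) in the gated cells. *Bap1* was thus not lower in the ΔMPC-labelled library, and counts at the 3′ end do not show whether floxed exons were lost, so every direction is that of the libraries as labelled. *Pdgfra*, the receptor that marks FAPs, had 241 and 177 CPM, and *Ly6a*, which encodes Sca1, 2694 and 2982 CPM. Of *Ptprc* (CD45), used in the sort, 0 UMIs were counted in either library. *Pecam1* (CD31), also used in the sort, had 0.953 CPM (13 UMIs) and 1.58 CPM (18 UMIs) in the gated cells, and 2.71 and 6.36 CPM in cells with P below 25. Of 15 listed immune markers 9 and 8 had any UMI in the gated cells, with summed levels of 10.6 and 15.9 CPM, and 14 endothelial markers summed to 10.8 and 8.32 CPM.

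*Dpp4* and *Has1* were not part of the gate and both were higher inside it. *Dpp4* had 299 CPM (interval 290 to 308) in gated cells and 56.5 CPM in cells with P below 25 of the WT-labelled library, and 292 CPM (interval 282 to 302) and 39.5 CPM in those of the ΔMPC-labelled library. In gated cells thinned to 5000 UMIs each, 72.0% and 63.8% had a *Dpp4* UMI, against 17.9% and 10.9% of cells with P below 25. Before thinning these shares were 90.7% and 77.3%, against 30.1% and 16.1%. *Has1* had 805 and 209 CPM in the first library, and 739 and 343 CPM in the second. *Has1* thus stood out less from its own library in the ΔMPC-labelled library, with a log2 ratio of 1.11 (interval 1.07 to 1.15) against 1.95 (interval 1.90 to 1.99). *Cxcl14*, the mark of the other type, had 10.3 CPM in gated cells and 317 CPM outside them in the WT-labelled library, against 74.9 and 956 CPM in the ΔMPC-labelled library.

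Along P the levels differed by degrees across the threshold. In the WT-labelled library, 115 cells lay at P from 20 to 25 and 90 gated cells from 25 to 30. *Dpp4* had 187 CPM just outside and 200 CPM just inside, and *Cxcl14* had 122 and 36.6 CPM. In the ΔMPC-labelled library the cells numbered 165 and 149, with 147 and 235 CPM of *Dpp4* and 266 and 195 CPM of *Cxcl14*. Within the gate the levels differed further. *Gabra2*, a subunit of the GABA-A receptor, was at 0 CPM in the 90 gated cells with P from 25 to 30 of the WT-labelled library, with an interval up to 3.14 CPM, and at 13.4, 34.8 and 70.3 CPM in the bands from 30 to 50, from 50 to 100 and from 100 upward. In the other library it had 12.6, 18.8, 54.0 and 105 CPM in the same bands. *Mgp*, a secreted inhibitor of calcification, went the other way, from 1265 to 54.9 CPM and from 150 to 11.9 CPM across these bands. Since P itself is built from genes of this state, these values describe the gate and test nothing.

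**Figure D1:**
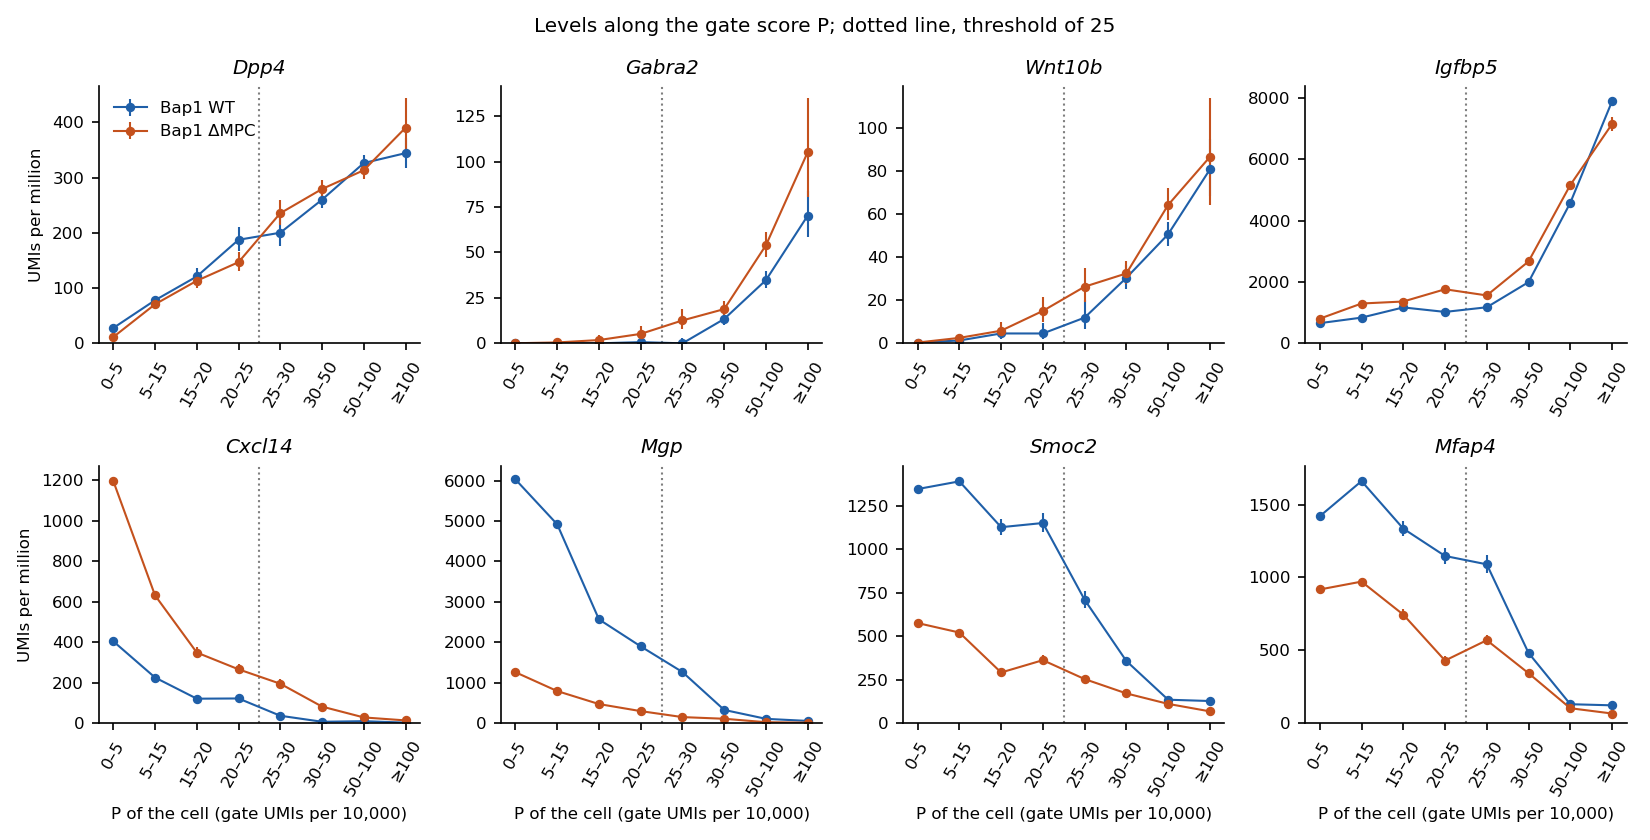
Levels of 8 genes (y axis, CPM, each on its own linear scale from 0) in bands of the gate score P (x axis), for the library labelled Bap1 WT in blue and Bap1 ΔMPC in orange. Bars are exact 95% intervals for counting error, bands from 25 upward leave out cells with Krt7 or Plet1, and Gabra2 at P of 100 or more stood at 70.3 and 105 CPM.

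Genes were then compared between gated cells and the cells with P below 25 of the same library. This contrast is that of the gate, so it is given as a description. A gene counted as higher or lower where the ratio of CPM was over 3-fold in both libraries. By that rule 170 of 11737 genes were higher (1.45%) and 460 were lower (3.92%), leaving out the genes of the gate. The median log2 ratio over all genes was -0.02 in the WT-labelled library and -0.06 in the ΔMPC-labelled library.

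The genes with the largest ratios were scarce outside the gate. *Gabra2* had 30.4 CPM in gated cells and 0.0813 CPM, from 3 UMIs, in cells with P below 25 of the WT-labelled library, a log2 ratio of 8.55 (interval 6.99 to 10.83). In the ΔMPC-labelled library it had 36.4 and 0.546 CPM, a log2 ratio of 6.06 (interval 5.40 to 6.81). Even so, it was found in a minority of the gated cells, 22.05% and 20.0%, against 0.10% and 0.42% of the cells with P below 25. *Mrgprg*, an orphan receptor of the Mas-related family best known in sensory neurons, had 23.7 against 0.108 CPM in the first library and 50.8 against 1.27 CPM in the second. *Akr1c18*, which inactivates progesterone, had 278 against 2.57 CPM and 92.0 against 3.16 CPM. Tight junction gene *Cldn11* had 19.9 against 0.379 CPM and 105 against 4.14 CPM.

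Several of the 15 genes with the largest ratios encode ligands, modulators or receptors of signaling pathways. *Wnt10b*, a WNT ligand that restrains adipocyte formation, had 45.5 CPM (interval 42.0 to 49.3) in gated cells and 1.11 CPM in the rest of the WT-labelled library, and 47.0 CPM (interval 43.1 to 51.2) and 2.04 CPM in those of the ΔMPC-labelled library. *Dact2*, a modulator of WNT and TGF-β signaling, had 188 and 4.34 CPM, and 205 and 8.97 CPM. The ligand *Bmp6* had 65.9 and 4.20 CPM, and 44.1 and 3.48 CPM. *Aldh1a3*, a synthase of retinoic acid, had 193 and 8.75 CPM, and 155 and 8.37 CPM. *Ackr2*, a receptor that clears chemokines, had 49.1 and 3.93 CPM, and 72.9 and 6.38 CPM. The remaining 6 were *Gpr1*, *Car8*, *Smpd3*, *Lurap1l*, *Adamts16* and *1700003F12Rik*, with log2 ratios between 3.41 for *Adamts16* and 5.51 for *Gpr1*.

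Of the genes lower in gated cells, the 15 with the largest ratios included several of the matrix. *Mgp* had 263 CPM (interval 254 to 271) in gated cells and 5287 CPM in the rest of the WT-labelled library, and 76.1 CPM (interval 71.1 to 81.3) and 1045 CPM in those of the ΔMPC-labelled library. *Comp*, a cartilage and tendon matrix protein, had 0.660 and 28.2 CPM, and 11.3 and 188 CPM. *Clu*, a secreted chaperone, had 9.09 and 152 CPM, and 10.1 and 147 CPM. *Meox1*, a homeobox factor of somite and fibroblast, had 2.86 and 76.8 CPM, and 2.01 and 39.5 CPM. *Fbln7*, a fibulin, had 3.52 and 100.1 CPM, and 4.82 and 106 CPM. *Egfl6*, a basement membrane protein, rested on 10 and 3 UMIs in gated cells, with log2 ratios of -4.92 (interval -5.99 to -4.03) and -5.75 (interval -8.03 to -4.20). *Gucy1a1*, a subunit of the nitric oxide receptor, and *Ptgir*, the prostacyclin receptor, had log2 ratios between -4.03 and -4.68.

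**Figure D2:**
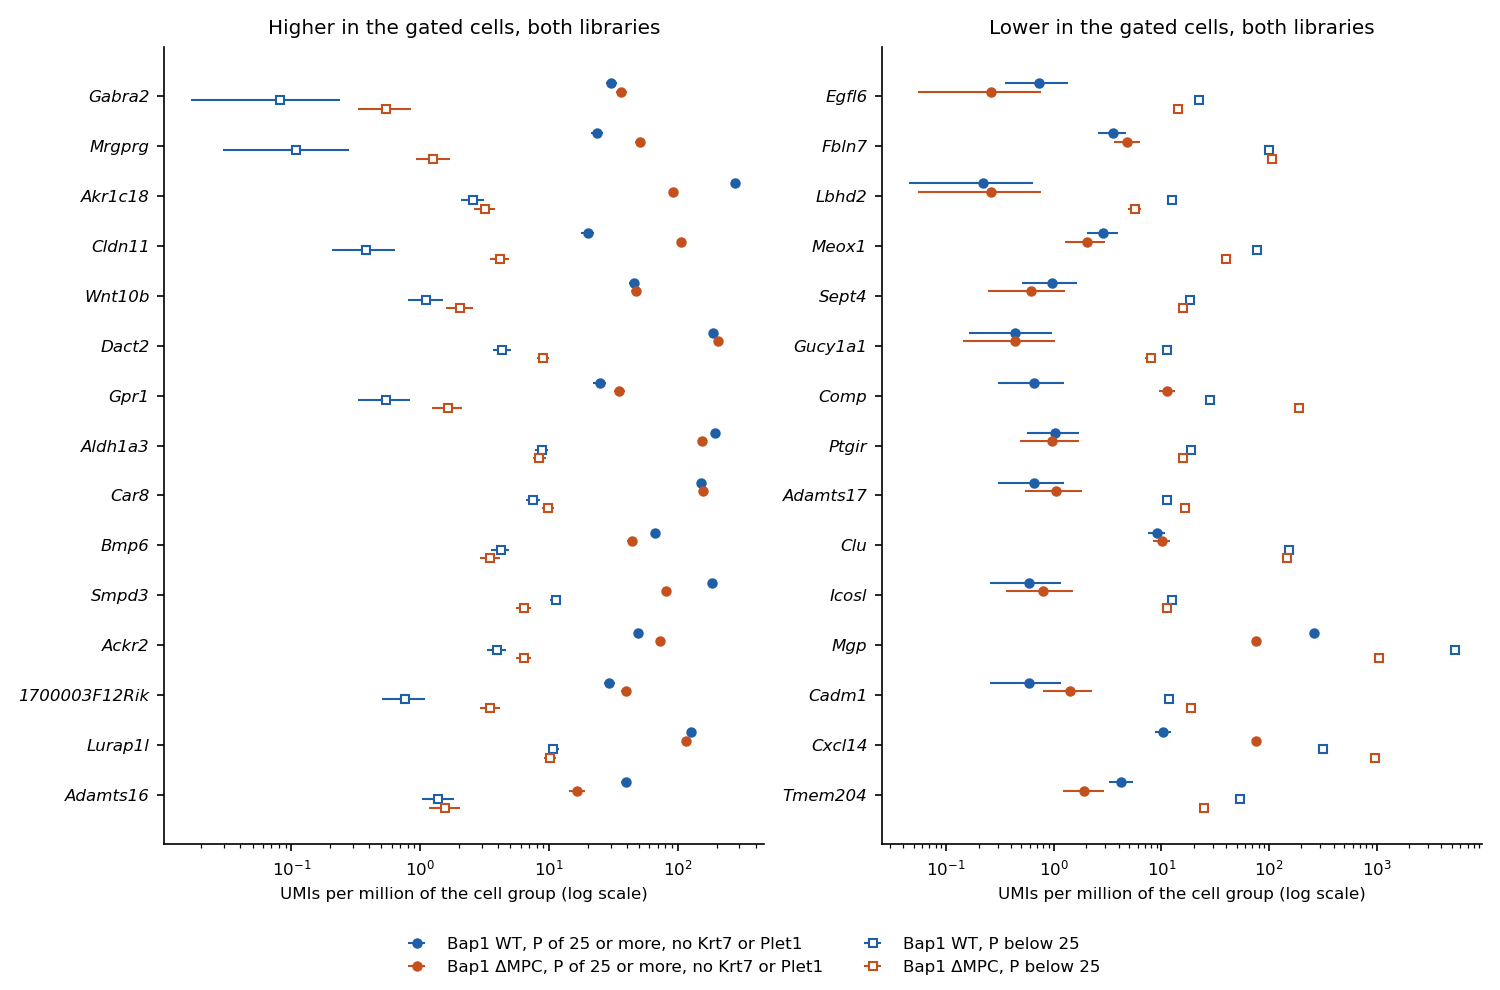
Levels (x axis, CPM, log scale) of the 15 genes of each direction with the largest ratio in the weaker library, in gated cells (filled circles) and cells with P below 25 (open squares). Blue is the library labelled Bap1 WT, orange Bap1 ΔMPC, and bars are exact 95% intervals for counting error. Gabra2 lies at 30.4 and 36.4 CPM in gated cells and under 1 CPM outside them.

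By role, the listed genes of the adventitial progenitor state stood highest. Of 42 such genes 24 were higher and 1 was lower, with median log2 ratios of 2.25 and 1.89. Over all genes 1.45% were higher and 3.92% lower. The gate selects this state by other genes of it, and the lists were chosen with earlier results of these data known. The counts of the lists therefore describe the gate and test nothing. Among them were *Il33*, an alarmin cytokine, with 167 against 31.6 CPM and 160 against 13.4 CPM, and *Igfbp5*, which binds insulin-like growth factors, with 3990 against 762 CPM and 3722 against 1010 CPM. The lower gene was *Stmn2*, a microtubule regulator of neurons. Of 22 genes of the interstitial type 15 were lower and 0 higher, and of 11 tendon genes 9 were lower and 0 higher. The tendon genes included *Tnmd*, which marks tenocytes, with 2.93 against 31.1 CPM and 7.01 against 83.5 CPM, and *Fmod*, a collagen-binding proteoglycan, with 2.79 against 58.9 CPM and 3.59 against 33.7 CPM.

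In the matrix lists, as over all genes (1.45% higher and 3.92% lower), more genes were lower than higher. The summed level did not go the same way in each list: it was 20714 against 12520 CPM and 18360 against 10714 CPM for the microfibril and elastic fiber genes, and 3997 against 2385 CPM and 4012 against 2779 CPM for the hyaluronan genes, higher in gated cells of both libraries. Of 28 basement membrane genes 9 were lower and only *Lamb3*, a laminin chain, was higher, with 9.31 against 1.38 CPM and 9.72 against 1.44 CPM. *Col15a1*, a collagen at the edge of basement membranes, had 150 against 1171 CPM and 185 against 1352 CPM. Of 32 genes of fibrillar collagen and its processing 5 were lower and 1, *Pcolce2*, an enhancer of procollagen cleavage, was higher. Of 25 microfibril and elastic fiber genes 4 were lower and 2, *Emilin2* and *Adamtsl4*, were higher. In the hyaluronan list 3 of 15 were lower and 1, the synthase *Has2*, was higher, with 58.3 against 18.5 CPM and 56.1 against 18.1 CPM. Among 41 proteases and inhibitors 5 were lower, including *Pappa* and *Pappa2*, which release insulin-like growth factors, and 2 higher, *Adamts16* and the aggrecanase *Adamts5*.

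Signaling and adhesion genes were found in both directions, beside 1.45% higher and 3.92% lower over all genes. In the list of neural guidance and trophic factors 9 of 76 genes were higher and 14 lower. The higher ones included *Gap43*, a growth cone protein, with 192 against 23.4 CPM and 136 against 10.6 CPM, and *Ntn4*, a netrin, with 106 against 33.1 CPM and 186 against 43.2 CPM. The lower ones included *Ngfr*, a neurotrophin receptor, with 0.587 against 10.9 CPM and 1.66 against 16.9 CPM. Of 50 ligands and modulators of BMP, TGF-β and WNT, 5 were higher and 10 lower. *Gdf10*, a BMP-like ligand, had 16.1 against 275 CPM and 9.90 against 81.7 CPM. Of 42 genes of IGF, FGF, PDGF and other growth factor signaling 3 were higher and 9 lower. *Pdgfc*, a ligand of PDGF receptor α, was among the higher, with 33.2 against 1.90 CPM and 34.9 against 3.91 CPM.

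Of 59 adhesion genes 4 were higher and 14 lower, of 41 complement, chemokine and cytokine genes 4 and 9, and of 36 steroid, retinoid and lipid genes 3 and 11. *Itgb7*, an integrin chain known from lymphocytes, was among the higher, with 7.99 against 0.407 CPM and 41.5 against 2.47 CPM. Of 44 immediate early genes 0 were higher and 3 lower, *Egr2*, *Egr3* and *Nr4a2*. None of the 37 interferon and class I genes, the 24 genes of the SMN complex and its snRNP partners or the 15 cycling genes passed 3-fold in either direction. The shares over all genes, 1.45% higher and 3.92% lower, leave room for few such genes in lists of this size. *Smn1* had 23.2 against 24.1 CPM and 23.8 against 24.4 CPM.

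**Figure D3:**
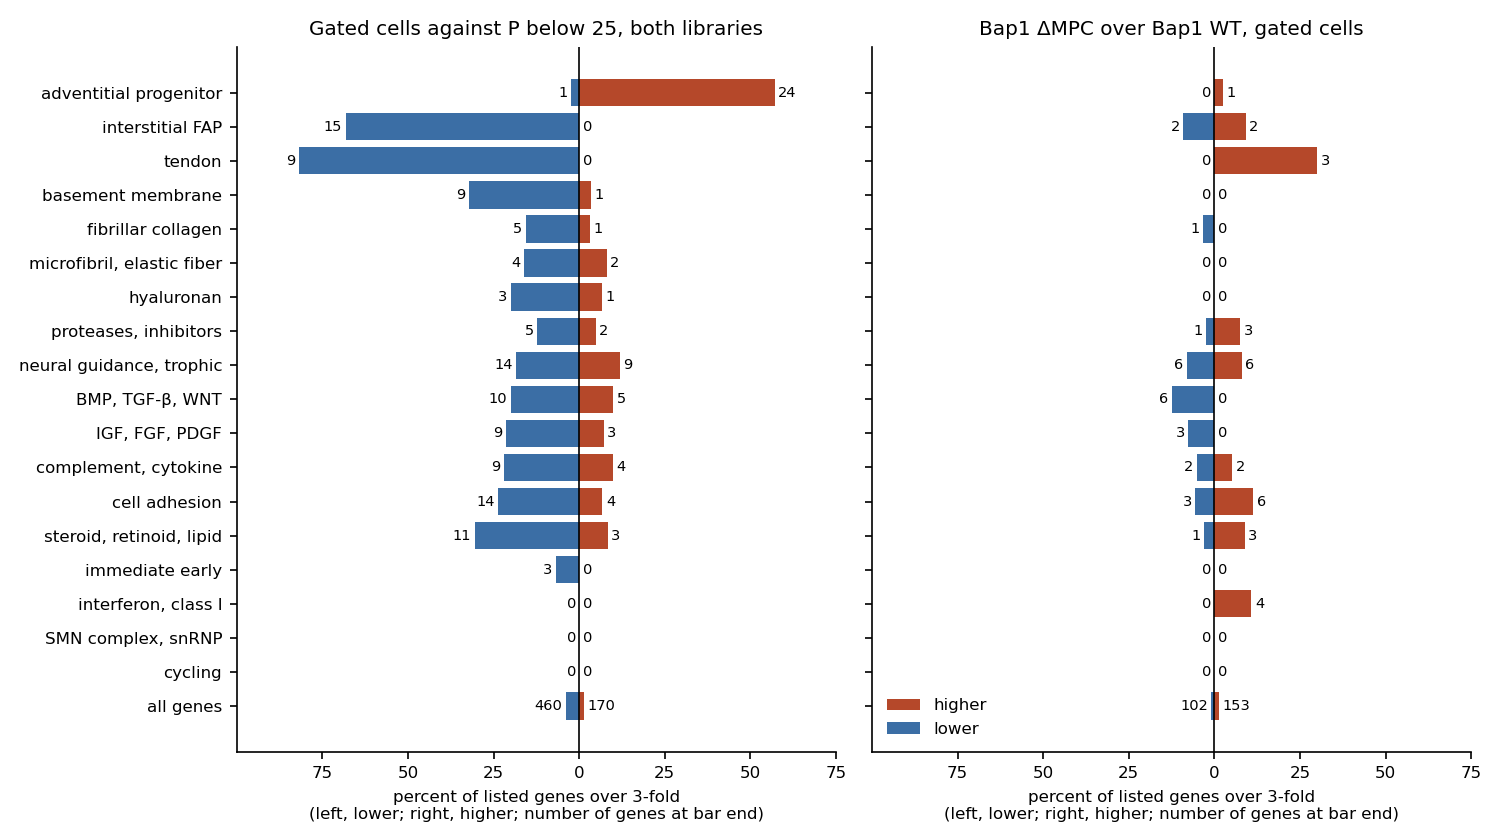
Percent of the measured genes of each list (rows) that were over 3-fold lower (left of 0) or higher (right of 0), with the number of genes at the bar ends. The left panel compares gated cells with cells of P below 25 in both libraries, where 24 of 42 adventitial progenitor genes were higher. The gate selects that state, so this count describes the gate. The right panel compares the libraries within gated cells.

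The gated cells also differed among themselves. Variation was measured as the ratio of variance to mean of a gene's UMIs around its share of each cell's total, which is 1 for counting alone. Among genes with 0.5 UMIs or more per gated cell, the 10 with the largest ratio in the weaker library were *Col1a1*, *Col1a2*, *Col3a1*, *Malat1*, *Igfbp5*, *Eln*, *Sparc*, *Mgp*, *H19* and *Mfap4*. The fibrillar collagen gene *Col1a1* was found in each gated cell, with a ratio of 140 and 169. *Eln*, which encodes elastin, was found in 87.7% and 64.9% of gated cells, with a ratio of 52.5 and 107. *Mgp* was found in 62.5% of gated cells of the WT-labelled library, against 96.6% of those with P below 25, and in 19.5% against 52.4% in the ΔMPC-labelled library. *H19*, an imprinted noncoding RNA, was found in 77.6% and 80.5%, with a ratio of 40.3 and 63.2. The ratio grows with the mean, so that it favors abundant genes.

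The libraries were then compared within the gated cells, which asks whether deletion of *Bap1* goes with a difference inside this state. Of 11553 genes, 153 were over 3-fold higher in the ΔMPC-labelled library (1.32%) and 102 were over 3-fold lower (0.883%). *Dpp4* differed by a log2 ratio of -0.04 (interval -0.10 to 0.03), *Wnt10b* by 0.05 (interval -0.12 to 0.22), *Car8* by 0.03 (interval -0.06 to 0.12) and *Igfbp5* by -0.10 (interval -0.12 to -0.08). Of the 42 adventitial progenitor genes 1 was over 3-fold higher, *Stmn2*, and 0 were lower. Some genes of the gated state did differ. *Akr1c18* was at 278 CPM (interval 269 to 287) and 92.0 CPM (interval 86.5 to 97.7), *Smpd3*, a neutral sphingomyelinase, at 185 and 80.1 CPM, and *Cldn11* at 19.9 CPM (interval 17.6 to 22.5) and 105 CPM (interval 99.0 to 111).

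The genes higher in the ΔMPC-labelled library included several of neurons and of secretion. *Pcsk2*, a protease that cuts prohormones in neuroendocrine cells, had 9 UMIs or 0.660 CPM and 224 UMIs or 19.6 CPM, a log2 ratio of 4.89 (interval 3.94 to 6.04). *Clstn2*, a synaptic calsyntenin, had 0.513 and 8.50 CPM, a log2 ratio of 4.05 (interval 2.95 to 5.40). *Slc6a2*, the norepinephrine transporter, had 7.92 and 51.6 CPM, a log2 ratio of 2.70 (interval 2.40 to 3.01). *Gfra1*, the receptor for GDNF, had 4.25 and 24.4 CPM, a log2 ratio of 2.52 (interval 2.11 to 2.96). In cells with P below 25 the log2 ratio was 4.09 for *Pcsk2*, 4.27 for *Clstn2*, 3.15 for *Slc6a2* and 1.13 for *Gfra1*, so that these genes were higher there too. *Cxcl14* and *Comp*, both low in gated cells, were also higher, with log2 ratios of 2.86 (interval 2.60 to 3.12) and 4.10 (interval 3.13 to 5.26).

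The genes lower in the ΔMPC-labelled library included genes of adhesion and axon guidance. *Sema3a*, a repellent of axons, had 125 UMIs or 9.17 CPM and 9 UMIs or 0.788 CPM, a log2 ratio of -3.54 (interval -4.70 to -2.57). *Cldn10*, a claudin, had 10.7 and 0.963 CPM, a log2 ratio of -3.47 (interval -4.51 to -2.59). *Chl1*, a neural adhesion molecule of the L1 family, had 16.2 and 1.58 CPM, a log2 ratio of -3.36 (interval -4.14 to -2.67). *Lgi1*, a secreted synaptic organizer, had 7.77 and 1.14 CPM. More abundant genes were *Agtr1a*, the angiotensin II receptor, with 51.2 and 11.6 CPM, and *Mef2c*, a transcription factor, with 49.3 and 11.4 CPM. *Bmp5* had 10.3 and 1.75 CPM, and *Piezo2*, a mechanosensitive channel, 7.33 and 1.31 CPM. *Vcam1*, a marker against which the cells were sorted, had 18.7 and 4.55 CPM. In cells with P below 25 the log2 ratio was -2.82 for *Cldn10*, -2.56 for *Agtr1a* and -2.56 for *Bmp5*, so that these genes were lower there too. Without thinning, *Mef2c* was found in 34.9% and 11.1% of those cells, and *Piezo2* in 19.1% and 5.50%. *Chl1* went the other way over all of those cells, with a log2 ratio of 0.66, but its direction changed with P. At P below 5 it had 0.858 and 3.45 CPM. From 15 to 20 it had 6.42 CPM (interval 3.51 to 10.8) and 0.902 CPM (interval 0.109 to 3.26). From 20 to 25 it had 5.22 and 0.519 CPM, with overlapping intervals. Just outside the gate *Chl1* was thus lower in the ΔMPC-labelled library, as inside it. The levels of *Chl1* and *Lgi1* outside the gate are given below.

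**Figure D4:**
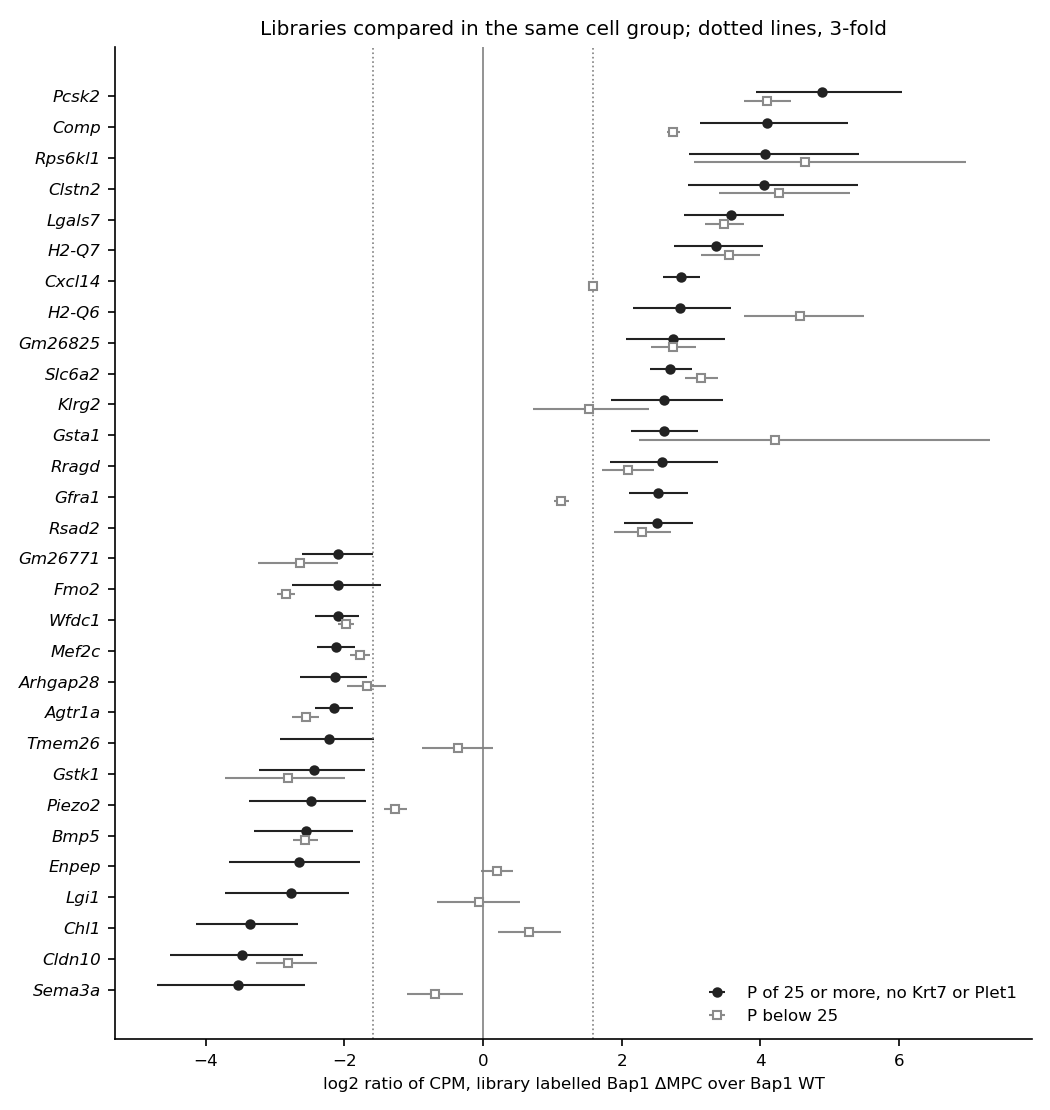
Log2 ratio of CPM (x axis), library labelled Bap1 ΔMPC over Bap1 WT, for the 15 genes of each direction with the largest ratio in gated cells (black circles), beside the ratio in cells with P below 25 (grey squares). Bars are exact 95% intervals for counting error and dotted lines mark 3-fold. Chl1 lies at -3.36 in gated cells and at 0.66 over all cells with P below 25, and Agtr1a at -2.15 and -2.56.

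The same comparison was made in the cells outside the gate. In cells with P below 25, 221 of 11751 genes were over 3-fold higher (1.88%) and 138 lower (1.17%). Of 11549 genes measured in both groups, 254 passed 3-fold in gated cells, and 133 of these did so in the same direction in cells with P below 25, 84 higher and 49 lower. The remaining 121 missed 3-fold outside the gate, and 0 passed in opposite directions. Missing 3-fold does not show that a gene differed between the groups, which was not tested. *Abcc9*, a subunit of a potassium channel, had a log2 ratio of -1.89 in gated cells and -1.34 in cells with P below 25. The groups share their libraries, so the overlap counts the same library difference more than once. Among the genes with at least 100 UMIs in each group, *Chl1* had the lowest difference between the log2 ratios of the groups. It had 16.2 against 1.87 CPM in gated cells and the rest of the WT-labelled library, and 1.58 against 2.96 CPM in those of the ΔMPC-labelled library. In cells thinned to 5000 UMIs, 6.11% of gated cells and 0.81% of the rest had a *Chl1* UMI in the first library, and 0.11% and 1.05% in the second. Without thinning these shares were 14.6%, 1.47%, 1.44% and 1.89%. *Lgi1* had 7.77 against 1.38 CPM, and 1.14 against 1.32 CPM. *Sema3a*, *Enpep*, an angiotensin-cleaving peptidase, *Ahr*, the dioxin receptor, *Tox3* and *Emb* had the next lowest differences. The opposite end held *Ramp1*, a partner of the CGRP receptor, with 34.3 and 123 CPM in gated cells and 58.6 and 49.9 CPM in the rest, and *Cbfa2t3*, *Cdc42ep3*, *Pltp*, *Fam189a2* and *Hmcn1*.

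Since the median P was lower in the ΔMPC-labelled library, cells were also set side by side within bands of P. The bands match P but not its make-up. From 25 to 30 *Pi16* had 1404 and 850 CPM and *Sema3c* 605 and 867 CPM. *Anxa3* had 462 and 555 CPM there, and *Efemp1* 291 and 443 CPM. From P of 50 to 100, with 494 and 389 gated cells, *Chl1* had 19.4 CPM and 1.52 CPM, and *Pcsk2* had 0.444 CPM (interval 0.0916 to 1.30) and 13.7 CPM (interval 10.5 to 17.5). *Slc6a2* had 7.99 and 51.6 CPM there, *Agtr1a* 48.2 and 12.4 CPM, *Mef2c* 52.4 and 12.2 CPM, and *Akr1c18* 360 and 122 CPM. From P of 30 to 50, with 294 and 378 gated cells, *Chl1* had 9.79 and 1.59 CPM, *Pcsk2* 1.03 and 24.7 CPM, and *Akr1c18* 191 and 84.8 CPM. From P of 25 to 30, with 90 and 149 gated cells, the intervals of *Chl1* overlapped, at 5.96 CPM (interval 2.40 to 12.3) and 2.19 CPM (interval 0.597 to 5.61). *Akr1c18* had 76.7 and 41.6 CPM there, a smaller ratio than over all gated cells. *Cxcl14* moved more with P, with 36.6 and 195 CPM from 25 to 30 but 9.77 and 28.3 CPM from 50 to 100.

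The counts of the lists stand beside 1.32% of all genes higher and 0.883% lower within gated cells, and 1.88% and 1.17% in cells with P below 25. Neural guidance and trophic genes were over 3-fold different in both directions within gated cells. Of 75 measured, 6 were higher (*Pcsk2*, *Gfra1*, *Sdc3*, *Map2*, *Nlgn3* and *Stmn2*) and 6 lower (among them *Sema3a*, *Chl1*, *Efna1*, *Lgi1* and *Lif*), with a median log2 ratio of 0.00 against 0.06 for all genes. In cells with P below 25, 12 of 77 such genes were higher and 4 lower. Of 48 ligands and modulators of BMP, TGF-β and WNT, 0 were higher and 6 lower (*Bmp5*, *Sfrp2*, *Wnt5b*, *Wisp1*, *Wisp2* and *Bmp3*). *Sfrp2*, a secreted WNT modulator, had 784 CPM (interval 770 to 799) and 192 CPM (interval 184 to 201). Of this list 3 of 50 genes were higher and 8 lower in cells with P below 25. *Bmp5*, *Sfrp2*, *Wisp1* and *Bmp3* were among the lower there too. Of 39 genes of IGF, FGF, PDGF and other growth factor signaling 0 were higher and 3 lower. These were *Angpt1*, *Met* and *Hgf*, all of the other growth factors. *Hgf*, a growth factor for muscle stem cells, had 2.42 and 0.788 CPM, and *Met*, its receptor, 15.04 and 4.55 CPM. Outside the gate 1 of 42 genes of this list was higher and 3 were lower, *Met*, *Angpt2* and *Hgf*.

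Of 37 interferon and class I genes 4 were higher and 0 lower, and the list's median log2 ratio was 0.59. In cells with P below 25 the list was alike in count, with 5 of 37 higher, 0 lower and a median of 0.52. *Isg15*, a ubiquitin-like modifier induced by interferon, had 20.5 and 67.9 CPM, and *Rsad2*, an antiviral enzyme, 3.15 and 18.0 CPM. *H2-Q6* and *H2-Q7* are near copies of each other, so their separate values are uncertain, with log2 ratios of 2.84 and 3.36. Of 53 adhesion genes 6 were higher and 3 lower, and in cells with P below 25 5 of 59 and 4 of 59. The higher ones included *Cldn11*, *Itgb7* and *Tnc*, and the lower ones *Cldn10* and *Vcam1*. In the list of proteases 3 of 40 genes were higher and 1 was lower, and in cells with P below 25 4 of 41 and 1 of 41. No gene of the basement membrane, microfibril, hyaluronan or immediate early list passed 3-fold. Of 24 SMN complex and snRNP genes 0 passed, with a median log2 ratio of -0.04, and *Smn1* had 23.2 CPM (interval 20.7 to 25.9) and 23.8 CPM (interval 21.1 to 26.8).

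Markers of other cell types also differed between the libraries. The 12 tendon markers summed to 603 and 684 CPM in gated cells, of which *Tppp3* gave 88.6% and 84.4%, and 3 of 10 measured, *Chad*, *Comp* and *Cilp2*, were over 3-fold higher in the ΔMPC-labelled library. *Chad* rested on 1 UMI in the other library. Over all genes 1.32% were higher in gated cells and 1.88% in cells with P below 25. In the latter cells 4 of 11 tendon markers were higher, these 3 and *Scx*. The 16 adipocyte markers summed to 5.72 CPM (interval 4.52 to 7.14) and 19.4 CPM (interval 17.0 to 22.2), and to 14.8 and 122 CPM in cells with P below 25. *Fabp4*, a fatty acid carrier, gave 41.0% and 55.9% of the UMIs of this list in gated cells. The 15 cycling markers summed to 100.2 CPM (interval 94.9 to 105.6) and 183 CPM (interval 175 to 191), with 0 genes past 3-fold and a median log2 ratio of 0.79. In cells with P below 25 they summed to 83.0 and 151 CPM, with 0 genes past 3-fold and a median of 0.86. Without cells that had 3 or more UMIs of the cycling markers, 153 genes were higher and 109 lower between the libraries within gated cells. Without cells that had any UMI of *Adipoq* or *Plin1* the counts were 154 and 103, and with all cells 153 and 102. Beyond these counts the part of the markers in the other differences was not tested.

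*Krt7* or *Plet1* cells of the ΔMPC-labelled library passed P but not the second condition. Against the 281 such cells, the gated cells had more *Cpz*, a carboxypeptidase that acts on WNT ligands, with 77.2 against 10.8 CPM, more *Lrrc17*, a secreted leucine-rich repeat protein, with 60.5 against 8.66 CPM, and more *Plac8*, with 63.1 against 9.26 CPM. *Serpina3c*, *Mmp3* and *Ephb2* had log2 ratios of 3.16, 2.96 and 2.90, with 4 UMIs each in the *Krt7* or *Plet1* cells. The gated cells had less *Des*, the intermediate filament of muscle, with 20.6 against 59.1 CPM, and less *Dmkn*, an epidermal secreted protein, with 21.2 against 69.0 CPM. *Anxa8*, *Mgam*, *Uck2* and *Rap1gap2* had log2 ratios between -1.74 and -1.58. In the WT-labelled library the 34 cells of that kind gave ratios in the same direction for these 12 genes, with 1 to 51 UMIs each in those cells. *Cpz* and *Lrrc17* were also lower in the ΔMPC-labelled library within gated cells, with 200 and 77.2 CPM and with 181 and 60.5 CPM.

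With 1 library per genotype the counts of genes describe these libraries. Of the genes past 3-fold within gated cells, 62 higher and 53 lower had at least 100 UMIs, so most rest on fewer. After thinning each cell to 5000 UMIs before the gate, 111 genes were higher and 130 lower.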

How the data were processed

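FAPs of 1 library per genotype were profiled with 10x Genomics 3′ chemistry. Per the submitters' processing notes and the study's methods, the authors ran Cell Ranger 3.1.0 with the mm10 genome and Seurat 3.2.1, and removed cells of poor quality, doublets and cells high in markers of other types. The deposited tables hold raw UMI counts of 31053 genes per cell. Doublets were not called again.

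Cells were gated by P, and counts were summed per library and group and divided by the group's total (CPM). Genes needed 20 UMIs in the groups compared and a mean log-normalized level above 0.01 over all cells, and counted as higher or lower past 3-fold. Where a group had 0 UMIs its ratio was taken against 3 counts. Shares have Clopper-Pearson intervals, levels exact Poisson intervals and ratios exact conditional binomial intervals (95%). No test between genotypes was possible. Depth ranged from 2793 to 22492 UMIs per cell. The calculation of ratios and intervals was run on simulated Poisson counts with known fold changes. Such counts hold no variation beyond counting, so the run checks the calculation and not how well the intervals suit these cells. Python 3.11.15, scipy 1.17.1 and edgeR 4.0.16 (TMM factors only, as an alternative) were used.

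The members and gene lists were chosen with earlier results of these data known. Genes were named by rule: the 15 with the largest ratio per direction in each main comparison, 6 per direction for the remaining comparisons, the 10 most variable, up to 2 per direction in each list (all where 4 or fewer passed), and *Dpp4*, *Has1*, *Bap1*, *Smn1*, *Pdgfra*, *Ly6a*, *Ptprc*, *Pecam1* and *Vcam1*. Other genes named as members of a list were added after their values were seen.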

Additional observations from a re-analysis of the deposited data

Results flagged for a closer look

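Of the 12 genes named because the log2 ratio of the ΔMPC-labelled to the WT-labelled library differed most between gated cells and cells with P below 25, 7 had ratios of opposite sign whose intervals both left out 0. The 12 genes were picked by that same difference, so the count of 7 follows in part from the pick and tests nothing. Of the 11549 genes measured in both groups, 0 passed 3-fold in opposite directions. Opposite signs short of 3-fold were not counted over all genes. Other named genes also had opposite signs, such as *Akr1c18* with -1.60 and 0.30. At P below 5 *Akr1c18* had 1.81 and 0.627 CPM, and from 15 to 20 it had 2.29 and 9.92 CPM. Its direction outside the gate thus changed with P. With 1 library per genotype the difference between the groups was not tested. *Chl1* had a log2 ratio of -3.36 in gated cells and 0.66 in cells with P below 25. From P of 15 to 20 alone *Chl1* was lower in the ΔMPC-labelled library, with 6.42 and 0.902 CPM. The log2 ratios of *Ahr* were -1.02 and 2.25, and those of *Emb*, a cell adhesion molecule, were -0.55 and 2.25. In the other direction, *Ramp1* had 1.85 in gated cells and -0.23 in cells with P below 25. *Fam189a2* had 0.83 and -1.03, *Cdc42ep3* had 0.75 and -1.40, and *Pltp*, a phospholipid transfer protein, had 0.69 and -1.29.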

How the results depend on the processing

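Of 74 alternatives to the shares and gene counts, 60 stayed close to the values given and 14 moved. A change in the order of the libraries was not part of this count. The share of gated cells in the WT-labelled and ΔMPC-labelled libraries was 31.7% and 29.1% with a P minimum of 15, 19.2% and 13.7% with a minimum of 40, and 22.5% and 17.1% where a *Dpp4* UMI was also required. Where cells with *Krt7* or *Plet1* were kept it was 25.6% and 28.6%, so that the order of the libraries changed. It was 25.6% and 23.5% after thinning to 5000 UMIs. At 2-fold, 364 genes were higher and 819 lower in gated cells than in cells with P below 25, and between libraries 362 were higher and 372 lower. With at least 100 UMIs the library counts were 62 and 53. After thinning they were 111 and 130 in place of 153 and 102, and with TMM factors 139 and 118. The causes were not tested, apart from fewer genes being measured at 100 UMIs. Ratios of named genes stayed close in 1145 cases, moved in 115 and reversed in 0. The cases that stayed close include settings that cannot alter a ratio: 2-fold, at least 100 UMIs and no minimum of UMIs. These genes were picked for large ratios, so a reversal was unlikely from the start.

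No paired analysis was possible because there was 1 library per genotype. Depth limits the genes that rest on few UMIs, and intervals do not cover variation between animals.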
